A study of Mus musculus with 25 samples.

Results

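The epididymal lipocalins described here were Lcn5, Lcn6, Lcn8, Lcn9, Lcn10, Lcn12 and Ptgds, which are 7 of the 24358 genes in the deposited table and lie in the lipocalin cluster of mouse chromosome 2. They were taken by gene symbol, and all 7 had an estimate in all 5 conditions. All-RNA-seq, a protocol that captures long and short RNA whatever its ends, was applied to sperm released from the incised cauda epididymides of mice aged 14 weeks. The 25 libraries fell into 5 conditions of 5 libraries each. Pregnant dams received either corn oil (CTL) or the plasticizer DEHP, bis(2-ethylhexyl)phthalate, in corn oil by mouth at 300 mg/kg/day (D300) from embryonic day 9 to 19. In the inbred strain FVB/N, sons of corn oil dams formed FVB.CTL.F1 and sons of DEHP dams FVB.D300.F1. In the inbred strain C57BL/6J the corresponding sons formed C57.CTL.F1 (corn oil) and C57.D300.F1 (DEHP). C57.D300.F2 was made up of C57BL/6J males fathered by exposed F1 males with unexposed females, so that the dosed animals were their grandmothers. No second generation of the corn oil lineage and no second generation of FVB/N was analysed here. The 10 C57BL/6J F1 libraries were labelled as re-analysed from earlier work and the other 15 as new, so that any difference between both sets of libraries cannot be told apart from a difference between C57BL/6J F1 and the other 3 conditions.

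Lipocalins are small secreted proteins that fold into a barrel with a pocket for hydrophobic molecules such as retinoids, steroids and lipids. In the epididymis they are released by the principal cells of the duct, several of them mainly in the initial segment and caput, upstream of the cauda where the sperm were taken, and they reach the fluid that bathes maturing sperm. Lcn5 (epididymal retinoic acid-binding protein) and its neighbour Lcn8 are known for binding retinoids, and Ptgds, lipocalin-type prostaglandin D synthase, is both a carrier and the enzyme that turns prostaglandin H into prostaglandin D.

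On the GRCm38 assembly (chromosome 2) the genes occupy 359 kb. Ptgds (chr2:25466709-25470046) and Lcn12 (chr2:25490845-25493911) lie on the minus strand. The other 5 lie on the plus strand, in the order Lcn8 (chr2:25653120-25656217), Lcn5 (chr2:25657952-25661977), Lcn6 (chr2:25676786-25681608), Lcn10 (chr2:25682726-25686081) and Lcn9 (chr2:25823153-25825537). Lcn8, Lcn5, Lcn6 and Lcn10 are adjacent and span 33.0 kb, Lcn12 is separated from Lcn8 by 159 kb with 15 annotated genes, and Lcn10 from Lcn9 by 137 kb with 9 annotated genes. The coding part of the longest isoform ran from 525 bases in Lcn8 to 579 bases in Lcn12. None of the 7 genes overlaps another member. At most 2.30% of the 18-base words of a member's exons (25 of 1089, in Lcn10) also occurred in transcripts of another gene, and no 50-base word did. Lcn5 and Lcn8 shared 1 word of 18 bases.

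The 250 bases before the RefSeq start of transcription (GRCm38.p6) are printed for the 5 lipocalins whose counts differed most between conditions, and for Lcn12, whose counts differed little. Each is written 5′ to 3′ on the strand of its gene. The windows are chr2:25652868-25653117 (+) for Lcn8, chr2:25657702-25657951 (+) for Lcn5, chr2:25676536-25676785 (+) for Lcn6, chr2:25682476-25682725 (+) for Lcn10, chr2:25822903-25823152 (+) for Lcn9 and chr2:25493912-25494161 (-) for Lcn12. Capitals mark TATAA, the core of the TATA box, and AGAACA, which is the hexamer TGTTCT (an arm of steroid hormone response elements) read on the opposite strand.
Lcn8: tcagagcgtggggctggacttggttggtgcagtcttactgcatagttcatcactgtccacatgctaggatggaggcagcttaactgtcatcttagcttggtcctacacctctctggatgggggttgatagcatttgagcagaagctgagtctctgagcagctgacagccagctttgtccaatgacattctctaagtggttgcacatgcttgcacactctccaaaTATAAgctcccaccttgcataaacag
Lcn5: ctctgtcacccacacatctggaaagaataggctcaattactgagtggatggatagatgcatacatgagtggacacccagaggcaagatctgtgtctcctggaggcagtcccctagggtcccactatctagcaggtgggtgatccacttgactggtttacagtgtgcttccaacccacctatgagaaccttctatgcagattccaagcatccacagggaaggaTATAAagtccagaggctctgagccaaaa
Lcn6: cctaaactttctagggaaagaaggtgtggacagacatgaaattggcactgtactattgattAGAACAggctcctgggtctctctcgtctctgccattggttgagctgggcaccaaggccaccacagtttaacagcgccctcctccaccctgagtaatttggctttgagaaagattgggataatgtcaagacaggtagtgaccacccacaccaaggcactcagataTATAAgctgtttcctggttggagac
Lcn10: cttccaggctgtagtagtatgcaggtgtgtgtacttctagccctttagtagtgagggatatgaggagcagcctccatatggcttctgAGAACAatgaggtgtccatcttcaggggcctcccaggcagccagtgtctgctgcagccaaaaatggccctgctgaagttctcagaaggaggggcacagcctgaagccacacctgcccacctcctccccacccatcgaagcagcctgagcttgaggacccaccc
Lcn9: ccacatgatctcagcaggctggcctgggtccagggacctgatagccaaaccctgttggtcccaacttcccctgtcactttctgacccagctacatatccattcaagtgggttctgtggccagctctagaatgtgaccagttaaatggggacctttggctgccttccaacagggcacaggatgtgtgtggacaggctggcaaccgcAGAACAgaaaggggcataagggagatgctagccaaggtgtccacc
Lcn12: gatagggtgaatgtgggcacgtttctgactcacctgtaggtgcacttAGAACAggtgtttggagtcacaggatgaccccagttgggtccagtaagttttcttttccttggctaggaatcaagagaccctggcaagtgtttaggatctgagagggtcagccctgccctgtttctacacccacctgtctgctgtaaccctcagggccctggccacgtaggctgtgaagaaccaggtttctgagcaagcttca

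TATAA was looked for after the sequences had been seen, on the strand of the gene and within the last 50 bases before the start. It stood 26 to 22 bases upstream in Lcn8, 28 to 24 in Lcn5 and 25 to 21 in Lcn6, and in none of the other 4 lipocalins. Over all 32851 promoter windows 4.93% held it there. TGTTCT, searched on both strands of the 250 bases, was found in 4 of 7 lipocalins (Lcn6, Lcn9, Lcn10 and Lcn12) against 16.1% of all windows. TGTTTAC, a core of forkhead factor sites, and AGGTCA, an arm of nuclear receptor sites, were in none of the 7 windows, against 3.17% and 14.0% of all windows. These matches are letters in a window, with no reading of factor binding. The gene without a TATAA or TGTTCT match in its window was Ptgds (chr2:25469750-25469999, minus strand). All windows were read from the mouse reference genome, which is not that of the strain FVB/N. Whether the same matches are present or absent in FVB/N was not tested.

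The estimated counts split the lipocalins into a pair present in every condition and 5 genes present in FVB.D300.F1. Each value is 1 estimate per condition that Cuffdiff made from the 5 libraries together, and the error given with it is the model SD, the square root of the variance that Cuffdiff deposited beside it. No value of single libraries was at hand, so no test between conditions was made and no difference has a replicate check. A difference said to exceed the model SD passed 1 such SD, which is a low bar and not a test. No share of all genes beyond it alone is given here.

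Lcn5 was estimated at 6686 ± 9206 counts in FVB.D300.F1 and 9.18 ± 4.89 in FVB.CTL.F1, and in C57BL/6J at 1.44 ± 2.29 in the corn oil F1, 0.542 ± 1.78 in the DEHP F1 and 0.714 ± 1.80 in the F2. It had the highest count of the 5 genes in FVB.D300.F1, where it stood 122nd in the table, and it also had the widest model error, larger than the count itself. FVB.CTL.F1 was the second highest condition, above C57.CTL.F1 by 7.74 counts against a model SD of that difference of 5.40. All 3 C57BL/6J conditions lay within the model SD of each other.

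Lcn8, which encodes a lipocalin of the proximal epididymis, was estimated at 1273 ± 1139 counts in FVB.D300.F1 and 1.32 ± 1.41 in FVB.CTL.F1, and in C57BL/6J at 2.40 ± 2.00 in the corn oil F1, 4.46 ± 3.00 in the DEHP F1 and 2.55 ± 2.03 in the F2. Lcn9 was at 1355 ± 1166 counts in FVB.D300.F1 and 2.52 ± 2.24 in FVB.CTL.F1, and at 3.71 ± 2.65, 2.91 ± 2.24 and 2.00 ± 1.73 in the corn oil F1, DEHP F1 and F2 of C57BL/6J. For both genes the 4 low conditions lay within the model SD of each other and FVB.D300.F1 lay above the next condition by more than it.

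Lcn6, a lipocalin known to bind to the sperm surface, was at 428 ± 292 counts in FVB.D300.F1 and 1.29 ± 1.77 in FVB.CTL.F1, and at 0.853 ± 1.76, 0.131 ± 1.42 and 0.715 ± 1.43 in the corn oil F1, DEHP F1 and F2 of C57BL/6J. Lcn10, the downstream neighbour of Lcn6, was at 454 ± 302 counts in FVB.D300.F1, 1.60 ± 1.73 in FVB.CTL.F1, and 1.72 ± 1.73, 2.68 ± 2.24 and 3.69 ± 2.65 in the same 3 conditions of C57BL/6J. These 2 genes had the lowest counts of the 5 in FVB.D300.F1 and the narrowest model error relative to the count.

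Ptgds was abundant throughout, at 28918 ± 18465 counts in FVB.D300.F1, 20044 ± 10755 in FVB.CTL.F1, and 17313 ± 11834, 12514 ± 5867 and 11805 ± 5633 in the F2, DEHP F1 and corn oil F1 of C57BL/6J. It was between the 81st (C57.CTL.F1) and the 26th (both FVB/N conditions) most counted gene of the table. Lcn12 was at 1155 ± 305, 891 ± 221, 855 ± 212, 825 ± 201 and 803 ± 199 counts in the same order. The 5 conditions thus ranked alike in both genes, with FVB.D300.F1 highest and C57.CTL.F1 lowest, and no step between neighbours in that order exceeded the model SD. Of the 28 steps between neighbouring conditions over all 7 genes, 5 exceeded it: the step of Lcn5 from C57.CTL.F1 to FVB.CTL.F1 and the steps to FVB.D300.F1 of Lcn6, Lcn8, Lcn9 and Lcn10.

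**Figure D1:**
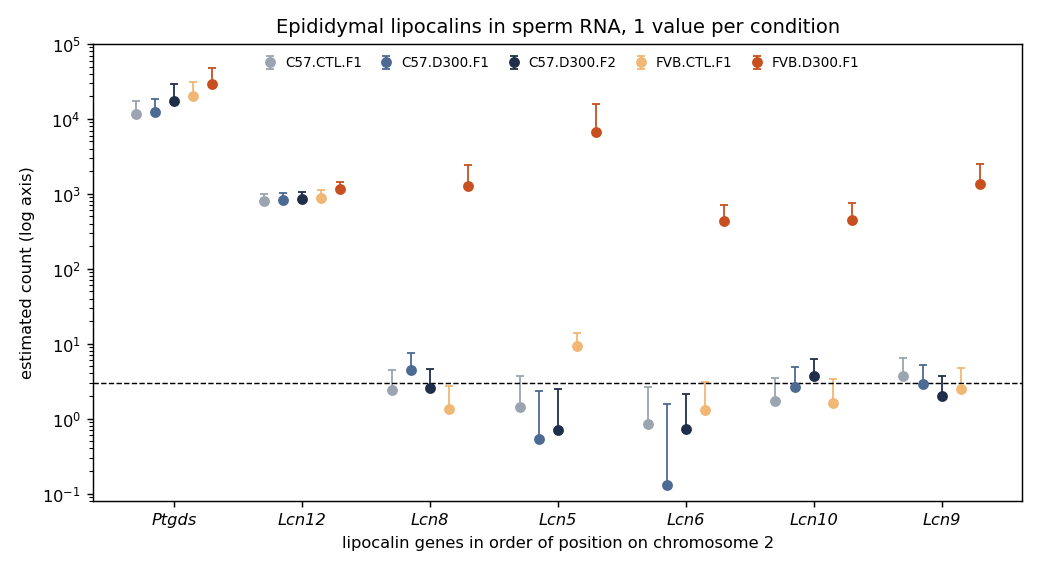
Estimated counts of the 7 lipocalins (log axis) in the 5 conditions, genes in order along chromosome 2, with 1 point per condition, a bar upward of 1 model SD, and a dashed line at 3 counts. Ptgds and Lcn12 lie at similar heights in all conditions, whereas Lcn8, Lcn5, Lcn6, Lcn10 and Lcn9 lie under 10 counts in 4 conditions and between 428 and 6686 in FVB.D300.F1.

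The model error of the 5 genes in FVB.D300.F1 was wide for their counts. Their model SD was 1.38 times the count for Lcn5, 0.894 for Lcn8, 0.861 for Lcn9, 0.681 for Lcn6 and 0.665 for Lcn10, which was 2.82 to 3.73 times the median of the 200 other genes of nearest count in the same condition. The same figure was 1.04 for Lcn12 and 1.46 for Ptgds. Whether the counts of the 5 genes came evenly from the 5 libraries of FVB.D300.F1 or from a few of them was not tested.

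The question addressed within FVB/N was how sperm RNA of a strain described as resistant to DEHP differed after prenatal exposure. Counts were compared as log2 ratios after adding 1 count, and a gene was counted as higher or lower where the ratio reached 2 log2 units with at least 10 counts in a compared condition. Lcn5, Lcn6, Lcn8, Lcn9 and Lcn10 were higher in FVB.D300.F1 by this measure than in the corn oil F1 of FVB/N, and Lcn12 and Ptgds were not. Of all 16471 genes compared 0.662% (109) were higher and 0.0182% (3) lower. The 5 genes reached 10 counts only in FVB.D300.F1, so that they could enter this comparison only by being high there, and their number is given as a description. Lcn5, Lcn8 and Lcn9 had also been reported by the study as increased there, from these same libraries.

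Lcn5 had the second highest log2 ratio of all genes compared, 9.36. Lcn8 was the third at 9.10 and Lcn9 the fifth at 8.59. Lcn6 was the 10th at 7.55 and Lcn10 the 13th at 7.45. These ratios rest on 1 to 10 counts in FVB.CTL.F1, and a fold change is therefore loosely bounded even by counting alone.

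As a ratio of counts without the added count, Lcn5 was 728-fold higher, with a nominal 95% interval of 386 to 1579 from counting error (conditional binomial at the estimated counts). The ratio was 962 (208 to 17651) for Lcn8 and 537 (168 to 3200) for Lcn9. For Lcn6 it was 331 (70.1 to 6467) and for Lcn10 283 (68.6 to 3453). The intervals overlapped among all 5 genes, so that their order by fold was not resolved. They cover counting error only and not the spread between animals. The scaled estimates were entered as if they were read counts, so the level of 95% is approximate.

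Against the model SD the picture was less even. The difference exceeded the model SD of that difference for Lcn6 (427 against 292 counts), Lcn10 (452 against 302), Lcn8 (1272 against 1139) and Lcn9 (1352 against 1166). It did not for Lcn5 (6677 against 9206), the gene with the largest difference of the 5. When the difference had also to exceed the model SD, 4 of the lipocalins and 0.559% of all genes (92) were higher.

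Ptgds was 1.44-fold higher in FVB.D300.F1, a difference of 8874 counts against a model SD of 21369, and Lcn12 was 1.30-fold higher, 263 counts against 377. Their log2 ratios were 0.53 and 0.37 and stood 1408th and 2286th of the 16471. The median log2 ratio of all 7 lipocalins was 7.55 beside 0.00460 over all genes compared, and 7.24 without the added count and with counts under 3 set to 3.

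**Figure D2:**
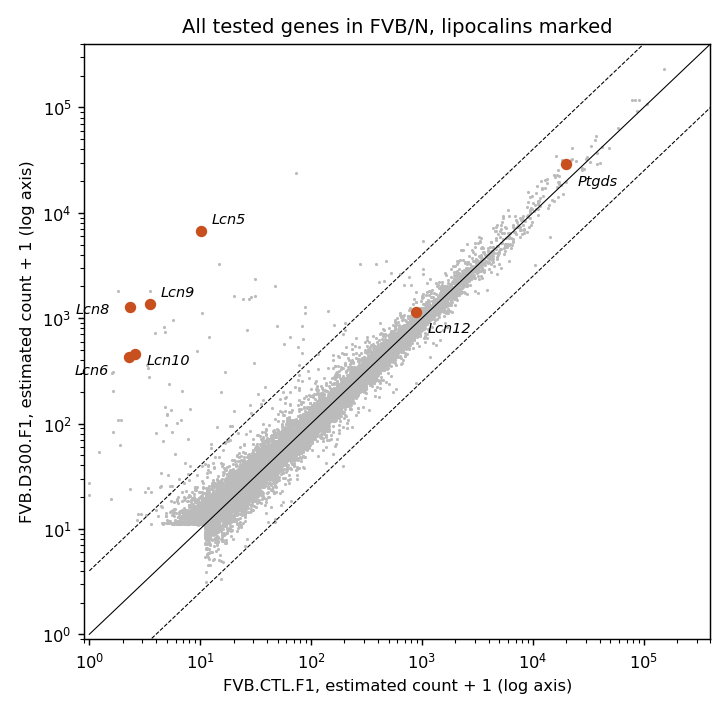
Estimated count plus 1 in FVB.D300.F1 (vertical, log axis) against FVB.CTL.F1 (horizontal, log axis) for each of the 16471 genes compared, with the 7 lipocalins marked, a solid line at equality and dashed lines at 2 log2 units either way. Lcn12 and Ptgds lie near equality, and Lcn5, Lcn6, Lcn8, Lcn9 and Lcn10 lie far above the upper dashed line.

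Levels were compared between genes after division by the length of all exons. In FVB.CTL.F1 the summed count per kb of the 7 lipocalins was 91.4% Ptgds and 8.48% Lcn12. In FVB.D300.F1 Ptgds made 56.9% of it, at 17537 counts per kb, and Lcn5 24.6%, at 7581. Lcn8 (1956 counts per kb), Lcn9 (1615) and Lcn12 (1461) followed with 6.35%, 5.24% and 4.74%. Lcn10 (410) and Lcn6 (264) contributed 1.33% and 0.856%. Lcn12, the second lipocalin per kb in the other 4 conditions, was therefore the fifth in FVB.D300.F1, although its own count was highest there. The order of all 7 genes in all 5 conditions was identical with the longest transcript as length. As a share of all counts the 7 genes together made 0.486% in FVB.D300.F1, 0.277% in FVB.CTL.F1, and 0.263%, 0.172% and 0.147% in the F2, DEHP F1 and corn oil F1 of C57BL/6J.

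In C57BL/6J the same exposure was compared in the strain described as susceptible. Only Ptgds and Lcn12 reached 10 counts in C57.D300.F1 or C57.CTL.F1, and neither was higher or lower by 2 log2 units, as were 0.0357% and 0.256% of the 16825 genes compared. Ptgds was 1.06-fold higher in C57.D300.F1 (709 counts against a model SD of 8133) and Lcn12 1.03-fold (21.4 against 283). The summed count of Lcn5, Lcn6, Lcn8, Lcn9 and Lcn10 was 10.1, 10.7 and 9.67 in the corn oil F1, DEHP F1 and F2 of C57BL/6J, beside 15.9 in FVB.CTL.F1 and, with DEHP in that strain, 10196.5. At 1 or a few counts a difference between the C57BL/6J conditions was not detectable for these 5 genes.

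The log2 ratio in FVB/N minus that in C57BL/6J gave the difference in response between strains. It was above 2 log2 units for the same 5 lipocalins, as it was for 0.997% of 17556 genes, and 0.228% lay below −2. The 5 genes entered here too only by their counts in FVB.D300.F1, so that their number and ranks are a description. It was 10.02 for Lcn5, 8.86 for Lcn9, 8.41 for Lcn8, 8.26 for Lcn6 and 7.02 for Lcn10, ranking from the 8th to the 29th of all genes. Ptgds had 0.44 and Lcn12 0.34. The difference has no test, and the C57BL/6J ratios of the 5 genes that enter it, from −0.71 for Lcn6 to 0.68 for Lcn8, rest on under 5 counts.

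Across generations, Ptgds in C57.D300.F2 was 1.47-fold higher than in the corn oil F1 (5508 counts against a model SD of 13106) and 1.38-fold higher than in the DEHP F1 (4799 against 13208). Lcn12 differed by 1.06-fold and 1.04-fold. Neither reached 2 log2 units. Set against the corn oil F1, 0.584% of all genes were higher and 3.61% lower in the F2, and set against the DEHP F1 these shares were 0.333% and 3.3%. Both comparisons share C57.D300.F2, and both set a new against a re-analysed set of libraries.

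Between the strains without DEHP, Ptgds was 1.70-fold higher in the corn oil F1 of FVB/N than in that of C57BL/6J (8239 counts against 12141) and Lcn12 1.11-fold (87.7 against 298). No lipocalin with 10 counts was higher or lower by 2 log2 units, as were 1.44% and 8.88% of all genes. With DEHP in both strains, Ptgds was 2.31-fold higher in FVB.D300.F1 than in C57.D300.F1 (16404 against 19374) and Lcn12 1.40-fold (330 against 366), and the 5 other genes had log2 ratios between 6.95 (Lcn10) and 12.08 (Lcn5), beside 2.65% of all genes higher and 7.67% lower. Those 5 genes entered this comparison only by their counts in FVB.D300.F1, so that setting them beside these shares is a description.

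The comparison of FVB.D300.F1 with C57.D300.F2 stayed within the newly made libraries. There the log2 ratio was 11.93 for Lcn5, the highest of 17122 genes, 8.82 for Lcn9, 8.49 for Lcn8, 7.97 for Lcn6 and 6.60 for Lcn10. Ptgds had 0.74 and Lcn12 0.43. Of all genes 1.58% were higher and 2.02% lower. The comparison of FVB.D300.F1 with FVB.CTL.F1 also lay within the new libraries. All comparisons with high ratios for the 5 genes share FVB.D300.F1. The 5 genes entered each of them only by their counts there, so that their ranks are a description.

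Within 50 kb of a member or between members, the annotation places 31 other genes, of which 24 were in the table and 15 had at least 10 counts in an FVB/N condition. None of these 15 was higher or lower in FVB.D300.F1 by 2 log2 units, beside 0.662% and 0.0182% of all genes. At such low shares none of 15 is a description only. Their median log2 ratio was 0.05, and it ran from −0.46 for Phpt1 to 1.33 for Bmyc, which lies between Lcn10 and Lcn9 and had 23.8 and 61.4 counts. The lipocalin family genes placed between Lcn10 and Lcn9 were nearly absent. Obp2b, Lcn3 and Lcn11 had under 3 counts in all 5 conditions. Obp2a, the nearest gene downstream of Lcn10, was listed at 0 counts in FVB.CTL.F1 and reached 8.82 with DEHP, below the 10 counts required. Fcna, the gene before Lcn8, had a log2 ratio of −0.40 with 165 and 125 counts. C8g, a lipocalin beside Lcn12 that encodes the gamma chain of a complement component, had another pattern, with 65.7 and 87.3 counts in FVB.CTL.F1 and FVB.D300.F1 and 524, 444 and 71.5 in the corn oil F1, DEHP F1 and F2 of C57BL/6J.

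**Figure D3:**
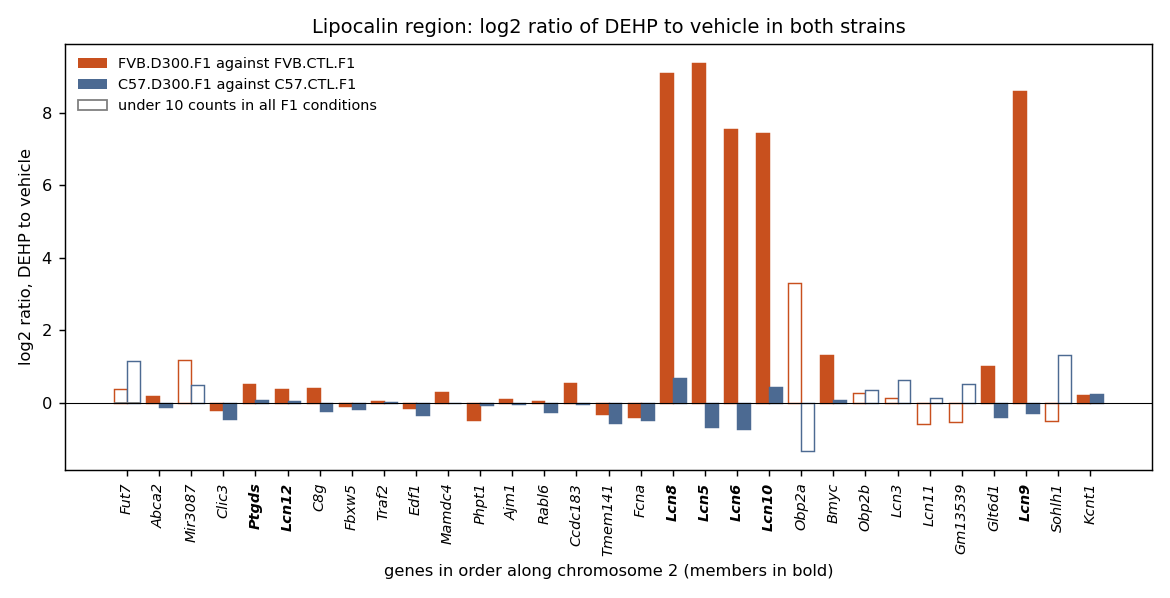
Log2 ratio of DEHP to vehicle (bars, from 0) in FVB/N and in C57BL/6J for the lipocalins and the genes around them, in order along chromosome 2, with open bars for genes under 10 counts in all F1 conditions. In FVB/N the bars of Lcn8, Lcn5, Lcn6, Lcn10 and Lcn9 exceed 7 log2 units, the 15 other genes compared, Ptgds and Lcn12 stay under 2, and the open bar of Obp2a reaches 3.30 on under 10 counts.

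Among 11231 other genes with at least 100 counts in a condition, 8 were nearest to the median pattern of the lipocalins over the 5 conditions, by root mean square distance of the centred log2 counts. They were Teddm1a (distance 0.261), Cst12 (0.295), Gm4846 (0.322), Gm15386 (0.341), Muc5b (0.437), Defb25 (0.443), Cst11 (0.475) and Clpsl2 (0.488). Cst11 and Cst12 encode cystatins, Defb25 a beta-defensin and Muc5b a mucin. The 8 genes had 203 (Gm15386) to 3279 (Muc5b) counts in FVB.D300.F1 and at most 17.9 in any other condition. They reached the required 100 counts only by being high in FVB.D300.F1, so that their likeness is a description. Of the members, Lcn6 (0.405), Lcn9 (0.423), Lcn10 (0.523) and Lcn8 (0.565) lay close to that median pattern, Lcn5 (1.65) farther, and Ptgds (2.75) and Lcn12 (2.93) farthest. The pattern is the median of these same members, most of them high in FVB.D300.F1 only. The closeness of those members to it is therefore built in. Likeness over 5 values of which 1 is high carries little detail, and 5 of these 8 genes were also among the 8 nearest by Pearson correlation.

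Other products of the epididymal epithelium, not all of them secreted, were taken from a list of 18 genes, of which 17 were compared in FVB/N. In FVB.D300.F1 13 were higher, beside 0.662% of all genes, and none lower, with a median log2 ratio of 5.68 over the 17. Of the 13, Cst8, Cst11, Cst12, Spint4, Defb30 and Teddm1a (6 genes) had under 10 counts in FVB.CTL.F1 and could enter the comparison only by being high in FVB.D300.F1, so that the count and the median are a description. Gpx5, Spag11b, Spint4, Defb30 and Defb42 had also been reported by the study as increased there, from these same libraries. Setting the 13 beside the share of all genes is therefore no independent support. The difference exceeded the model SD for 9 of the 13 and lay within it for Gpx5, Adam28, Spag11b and Defb42. Gpx5, a secreted glutathione peroxidase, went from 71.4 to 24121 counts. Defb30, a beta-defensin, had 7.18 and 1829 counts, Cst12 0.614 and 299, and Teddm1a 3.84 and 738. Crisp1, the most counted gene of the list with 219328 counts in FVB.D300.F1, had a failed estimate in FVB.CTL.F1 and could not be compared. The 4 genes of the list that were not higher by 2 log2 units were Adam7 (37310 and 53922 counts), Clu (41657 and 42154), Crisp4 (173 and 435) and Rnase9 (797 and 2065), named after their values were seen. Like Ptgds and Lcn12, these 4 had over 100 counts in FVB.CTL.F1, whereas the 13 that were higher had under 100 there. That limit of 100 was drawn after the values were seen. The count in FVB.CTL.F1 is also the denominator of the ratio, so the split is a description only.

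Of 20 other members of the lipocalin family listed, 15 were in the table and 6 were compared in FVB/N. None was higher or lower by 2 log2 units, beside 0.662% and 0.0182% of all genes, with a median log2 ratio of −0.28. Orm1, an acute phase plasma protein, had 17.9 and 8.53 counts in FVB/N without and with DEHP (log2 ratio −0.99), and Ambp, the precursor of a plasma microglobulin, had 16.6 and 8.09 (−0.95), both differences beyond the model SD. Lcn2, which binds bacterial siderophores, had 638 and 1113 counts (0.80) and Rbp4, the plasma carrier of retinol, 41.0 and 28.3 (−0.52), both within it. Apod, an apolipoprotein of the lipocalin fold and the most counted of the list in FVB/N, had 2091 and 2049. Several family members that the liver secretes into plasma separated the C57BL/6J F1 conditions from the rest instead. Rbp4 had 2204 and 3418 counts in the corn oil and DEHP F1 of C57BL/6J, 153 in the F2, and 41.0 and 28.3 in the corn oil and DEHP F1 of FVB/N. Of 9 compared, 7 were lower in the F2 of C57BL/6J than in its corn oil F1, beside 3.61% of all genes, and 7 were lower in FVB.CTL.F1, beside 8.88%, than in that same corn oil F1. The 8 liver genes listed as markers moved with them, from summed counts of 183780 and 159701 in the corn oil and DEHP F1 of C57BL/6J to 4352 in its F2 and 981 and 642 in the corn oil and DEHP F1 of FVB/N, and their part in the result was not tested. With DEHP in the F1 of C57BL/6J, Orm2 and Orm3, which encode acute phase proteins, were the 2 of 9 that were lower, beside 0.256% of all genes. They were named after their values were seen. Apom, Orm2 and Orm3, among the 7 lower genes, had under 10 counts in the F2 and in FVB.CTL.F1. These genes entered both comparisons only by their counts in the corn oil F1 of C57BL/6J. The same held for Orm3 against the DEHP F1, so that the numbers of lower family members are a description.

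Genes around the ligands of the lipocalins were compared in FVB/N. Of 18 genes of retinoid handling and retinoid receptors compared, none was higher or lower, with a median log2 ratio of −0.09. Of all genes 0.662% were higher and 0.0182% lower, so that none of 18 is a description only. Stra6, a retinol transporter, had the highest at 0.59 (22.4 and 34.3 counts) and Rbp4 the lowest at −0.52. Lrp2, an endocytic receptor that takes up retinol carriers and the most counted gene of the list in FVB/N, had 19806 and 19582 counts.

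Of 8 genes of the prostaglandin D pathway compared, none reached 2 log2 units, with a median of −0.55. Of all genes 0.662% were higher and 0.0182% lower. Ptgs2, the inducible cyclooxygenase that supplies the substrate of Ptgds, had 10401 and 3227 counts in FVB/N without and with DEHP, and 748, 356 and 3276 in the corn oil F1, DEHP F1 and F2 of C57BL/6J. Its log2 ratio in FVB/N was −1.69, a difference beyond the model SD. Slco2a1, a prostaglandin transporter, had 3013 and 1801 counts in these FVB/N conditions, and Pla2g4a, a phospholipase that releases arachidonic acid, 1229 and 816. The count of Ptgds was higher and those of these 3 genes lower in FVB.D300.F1, with only the latter 3 beyond the model SD. Of the others compared, Hpgds (62.15 and 77.9 counts) and Ptgdr (12.2 and 12.6) were higher. Ptgs1, Hpgd and Pparg were lower, and all of these others lay within the model SD. For Slco2a1 the model SD was 993 without and 495 with DEHP, and for Pla2g4a 329 and 205. Whether Ptgds and these genes differed in direction was not tested.

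Of 10 transcription factors of the epididymal epithelium compared, none was higher or lower, beside 0.662% and 0.0182% of all genes. Their median log2 ratio was 0.09. Foxa1, a forkhead factor that opens chromatin for other factors, had the highest at 0.92, with 239 and 451 counts in FVB/N and 115, 168 and 219 in the corn oil F1, DEHP F1 and F2 of C57BL/6J, and its difference in FVB/N exceeded the model SD. Pax8 had the highest count in FVB/N, 2005 and 2230.

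Markers of the cells that the samples could hold were set beside these results. All 12 sperm markers, among them the protamine genes Prm1 and Prm2, had over 10 counts in every condition, and their summed count was 96340, 81064 and 32996 in the corn oil F1, DEHP F1 and F2 of C57BL/6J and 8215 and 9787 in the corn oil and DEHP F1 of FVB/N. All 13 markers of epididymal epithelial cells were also over 10 counts in every condition. They summed to 11697, 10018, 11967, 16145 and 16392 counts in the same order. In FVB.D300.F1 against FVB.CTL.F1 none of the 13 was higher or lower, beside 0.662% and 0.0182% of all genes. Their median log2 ratio was 0.07, with a highest value of 1.23 for Cldn10. Epcam, a membrane protein of epithelial cells, had 3936 and 4075 counts. Cldn10 and Cftr (log2 ratio 0.91) differed beyond the model SD. The part of these cells in the lipocalin counts was not tested.

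In these bulk samples fewer cells of a type and less RNA per cell cannot be told apart. Between FVB.CTL.F1 and C57.CTL.F1, where all 12 sperm markers were lower (median log2 ratio −3.27), the part of sperm content in the levels of Ptgds and Lcn12 was not tested. The 8 seminal vesicle genes summed to 231112 counts in C57.CTL.F1 and to between 690 and 2139 in the other conditions. Of 9 leukocyte markers compared in FVB/N, S100a9 was higher in FVB.D300.F1, with 3.36 and 24.1 counts, beside 0.662% of all genes. It entered the comparison only by its count there. S100a8, which pairs with S100a9 in neutrophils, had 135 and 59.2 counts (log2 ratio −1.18), and both differences exceeded the model SD. Lyz2, a lysozyme of macrophages and neutrophils and the most counted of the list, had 654 and 956. The summed count of the list was 1917 and 2210. The parts of seminal vesicle cells and leukocytes in the lipocalin counts were not tested either.

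**Figure D4:**
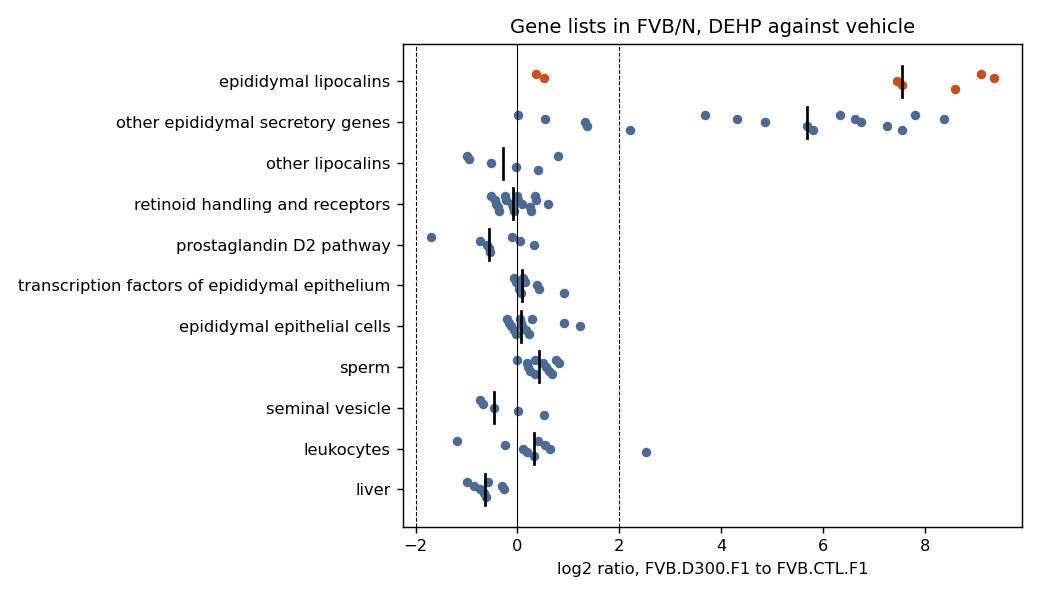
Log2 ratio of DEHP to corn oil F1 in FVB/N (horizontal) for the genes with at least 10 counts in each list, with 1 point per gene, a bar at the list median and dashed lines at 2 log2 units either way. The lipocalins and the other epididymal secretory genes extend to 9.36 and 8.38, and all genes of the other lists except S100a9 (2.52) among the leukocyte markers lie between the dashed lines.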

How the data were processed

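All-RNA-seq of sperm from 25 mice in 5 conditions of 5 libraries was used. Following the study's methods and submitters' processing notes, RNA was extracted with TRIZOL, depleted of ribosomal RNA, fragmented and made into small RNA libraries that keep strand. Reads (CASAVA 1.8.2) of at least 18 bases were mapped with TopHat to mm10 and quantified with Cuffdiff. Cuffdiff options and the annotation release were not given in the sources used here. The deposited signal values are gene counts that the authors estimated with Cuffdiff, 1 per gene and condition over its 5 libraries, scaled between libraries but not divided by gene length, with a variance for each that the authors deposited too. Totals were 8602900, 7748902, 6921688, 7568129 and 8278486 counts in the corn oil F1, DEHP F1 and F2 of C57BL/6J and the corn oil and DEHP F1 of FVB/N. Failed estimates (71 genes in any condition) were treated as missing.

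Log2 ratios used a pseudocount of 1. A gene was compared with at least 10 counts in 1 of both conditions and was called higher or lower from 2 log2 units. The table holds 1 value per condition, so no p-value or replicate SD was computed, and a count distribution was used only for the counting intervals of ratios. The script was tested on simulated data. The model SD of a difference was the square root of the summed variances. Below 3 counts a gene was treated as at the floor in the alternatives. The members and gene lists were chosen with earlier results of these data known. Named were all lipocalins, the 8 genes of nearest pattern, genes within 50 kb of or between members, and of each list at most 4 genes, taken in order of absolute log2 ratio in FVB/N, and the highest counted one. Other genes were named after their values were seen. Coordinates and exon lengths came from the GENCODE annotation of GRCm38 and promoters from RefSeq (GRCm38.p6), where all 7 members matched. The scripts ran in Python 3.11.15 with pandas 2.3.3 and numpy 2.4.6 for tables, scipy 1.17.1 for intervals and matplotlib 3.10.9 for plots. Other scalings, pseudocounts, minimum counts and thresholds were tried as alternatives.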

Additional observations from a re-analysis of the deposited data

How the results depend on the processing

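No paired analysis was possible because the table holds 1 value per condition and no value of a single library, and for the same reason no library could be left out. The number of lipocalins higher in FVB.D300.F1 stayed at 5 in FVB/N under every scaling, pseudocount, minimum count and threshold tried, and was 4 when the difference had also to exceed the model SD, which Lcn5 did not. Of 336 recomputed log2 ratios of single lipocalins 57 moved by more than 0.5, 40 of them with the pseudocount. No ratio of at least 2 log2 units changed sign, and 3 of the recomputed ratios did, all near 0 on under 5 counts. They were that of Lcn6 between C57.D300.F2 and the corn oil F1 (−0.11, and 0.03 with equal totals) and that of Lcn10 between both corn oil F1 conditions (−0.06, and 0.05 with equal totals or the upper quartile). Scaling to equal totals shifted the median of all genes by −0.13 in FVB/N, and by −0.26 to 0.31 over the 7 comparisons, and no scaling changed the sign of Ptgds or Lcn12 in any comparison.

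The median log2 ratio of the 7 lipocalins depended on how low counts were handled. In FVB.D300.F1 against FVB.CTL.F1 it was 7.55, and 8.27 with a pseudocount of 0.1, 5.32 with 10 and 6.83 with counts under 3 set to 3. Against C57.D300.F1 it was 7.87, and 5.43 with a pseudocount of 10 and 6.83 with counts under 3 set to 3. Against C57.D300.F2 it was 7.97, and 8.91, 5.35 and 6.74 with these 3 settings. For the difference between strains it was 8.26, and 8.94, 5.38 and 6.83. With no minimum count, 1 lipocalin (Lcn5, 1.44 and 9.18 counts) was higher in the corn oil F1 of FVB/N than of C57BL/6J, and 0 otherwise. By Pearson correlation 5 of the 8 nearest genes were shared.

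Over all genes the numbers higher and lower, with their lowest and highest over the alternatives, were: for DEHP in C57BL/6J, 6 (3 to 184) and 43 (26 to 193), for C57.D300.F2 against the corn oil F1, 100 (27 to 702) and 617 (483 to 1739), for C57.D300.F2 against the DEHP F1, 57 (23 to 461) and 566 (428 to 1430), for FVB/N against C57BL/6J with corn oil, 246 (98 to 1282) and 1518 (941 to 3207), for FVB/N against C57BL/6J F1 with DEHP, 460 (222 to 2091) and 1332 (842 to 3457), for FVB.D300.F1 against the C57BL/6J F2, 271 (148 to 1195) and 346 (143 to 1813), for DEHP in FVB/N, 109 (73 to 355) and 3 (1 to 102), for the difference between strains, 175 (111 to 782) and 40 (13 to 513). The highest was reached with a threshold of 1 log2 unit each time. Depth limits every statement on the 5 lipocalins outside FVB.D300.F1, where they had under 10 counts.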
